A study of Homo sapiens with 6 samples.

Results

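The genes described here handle zinc inside and at the surface of the cell: the metallothioneins, the SLC30A and SLC39A families of zinc transporters, and MTF1. They were chosen by gene symbol among probe sets annotated with 1 gene, with pseudogenes left out, which gave 36 of the 18404 genes tested. Of these, 11 were metallothionein genes, 10 belonged to SLC30A, 14 to SLC39A, and 1 was MTF1. The samples were HaCaT cells, a spontaneously immortalised line of human keratinocytes, harvested 72 hours after short hairpin RNAs were introduced by lentivirus. The hairpin of 3 samples targeted TP63 (shTP63), and a control vector was used for the other 3 (shControl), so both groups had been exposed to lentivirus. TP63 encodes p63, a transcription factor of the basal layer of stratified epithelia, and the series was collected to study p63 and ACTL6A in relation to Hippo-YAP activity in squamous carcinoma. The labels name neither the hairpin sequences nor separate cultures behind the replicates, and list several media without saying which one these cells were grown in. The p-values therefore rest on the spread among these arrays, and that spread may be technical. TP63 itself was not analysed here, so every direction rests on the sample labels.

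Free zinc in the cytosol is kept low. Metallothioneins are small cysteine-rich proteins that bind zinc and copper and give zinc up on oxidation. SLC30A proteins, also called ZnT, move zinc out of the cytosol, either across the plasma membrane or into organelles, and SLC39A proteins, also called ZIP, move zinc into the cytosol. MTF1 is the zinc-sensing transcription factor that binds metal response elements upstream of metallothionein genes and of SLC30A1 when zinc is high. In skin, zinc is needed for normal epidermal turnover, and loss of the intestinal importer SLC39A4 causes acrodermatitis enteropathica, a zinc deficiency with skin lesions.

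The upstream sequences of 3 members are shown because MTF1 is known to act through them and because the first pair and the other gene differed between the groups in opposite directions. Each is the 250 bases before the listed transcript start, 5′ to 3′ on the gene's own strand, from RefSeq on GRCh38.p14. Capitals mark matches to the core of the metal response element, searched on both strands as TGCACNC and TGCGCNC. MT2A lies on the plus strand at chr16:56608334-56608583, MT1X on the plus strand at chr16:56682220-56682469 and SLC30A1 on the minus strand at chr1:211579162-211579411.
MT2A: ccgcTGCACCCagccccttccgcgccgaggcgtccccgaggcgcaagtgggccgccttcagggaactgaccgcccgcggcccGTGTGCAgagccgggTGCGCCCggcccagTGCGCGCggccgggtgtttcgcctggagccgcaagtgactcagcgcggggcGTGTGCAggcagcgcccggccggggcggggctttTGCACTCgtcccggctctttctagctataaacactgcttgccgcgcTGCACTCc
MT1X: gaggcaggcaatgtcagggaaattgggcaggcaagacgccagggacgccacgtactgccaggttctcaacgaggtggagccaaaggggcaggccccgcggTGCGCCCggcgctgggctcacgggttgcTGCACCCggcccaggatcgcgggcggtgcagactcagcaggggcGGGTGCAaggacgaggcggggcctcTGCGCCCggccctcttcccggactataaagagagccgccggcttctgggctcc
SLC30A1: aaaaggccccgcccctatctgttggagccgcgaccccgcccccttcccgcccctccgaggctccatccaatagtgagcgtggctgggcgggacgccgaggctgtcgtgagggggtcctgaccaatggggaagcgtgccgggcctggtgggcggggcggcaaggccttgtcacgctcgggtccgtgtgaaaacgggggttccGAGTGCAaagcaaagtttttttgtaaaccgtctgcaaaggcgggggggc
The MT2A window held 7 matches and the MT1X window 4, none overlapping another, while the SLC30A1 window held 1. RefSeq windows were given for 27 of the 36 members, and MT1E, MT1F and MT1G, which fell as described below, had none. All 5 metallothionein genes with a window (MT2A, MT1X, MT1B, MT1H and MT4) had 3 or more separate matches, against 1.05% of all 35116 windows of that length. MT1H, with 8 matches, and MT4, with 3, did not pass the test between the groups described below. Among the transporters SLC30A2 also had 3 separate matches, and it did not pass either. At least 1 match was held by 6 of 11 SLC30A windows and 5 of 19 SLC39A windows, against 24.8% of all windows. Some genes have several windows, and counted by gene a match was found for 5 of 9 SLC30A and 5 of 12 SLC39A genes. A match describes letters in a window and is not a measured binding site. The 3 sequences shown were chosen with their differences known, and whether matches relate to direction was not tested.

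Values are log2 intensities, and each gene was read from the probe set with the highest mean over the 6 arrays. Differences are shTP63 minus shControl, tested with limma across all 18404 genes, and a gene passed at a Benjamini-Hochberg adjusted p under 0.05. Of the 36 members 19 passed, 11 of which rose and 8 fell in shTP63. Passing was common on these arrays: 41.5% of all genes passed, 16.4% as rises and 25.1% as falls, so the number of members that passed is described against that background. The median difference was 0.02 over the members and -0.01 over all genes. The families differed in direction. No metallothionein rose and 6 of 11 fell (median difference -0.16). The 6 that fell had bright probe sets, and falls were more common among bright genes, as set out below. Among SLC30A genes 3 of 10 rose and 1 fell (median 0.04), and among SLC39A genes 8 of 14 rose and 1 fell (median 0.19). The 3 shTP63 arrays all lay above the 3 shControl arrays for 12 members (20.9% of all genes) and all below them for 10 (30.4% of all genes), which together is 22 of 36 members against 51.4% of all genes. In bulk RNA, fewer cells expressing a gene and less RNA per cell cannot be told apart.

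**Figure D1:**
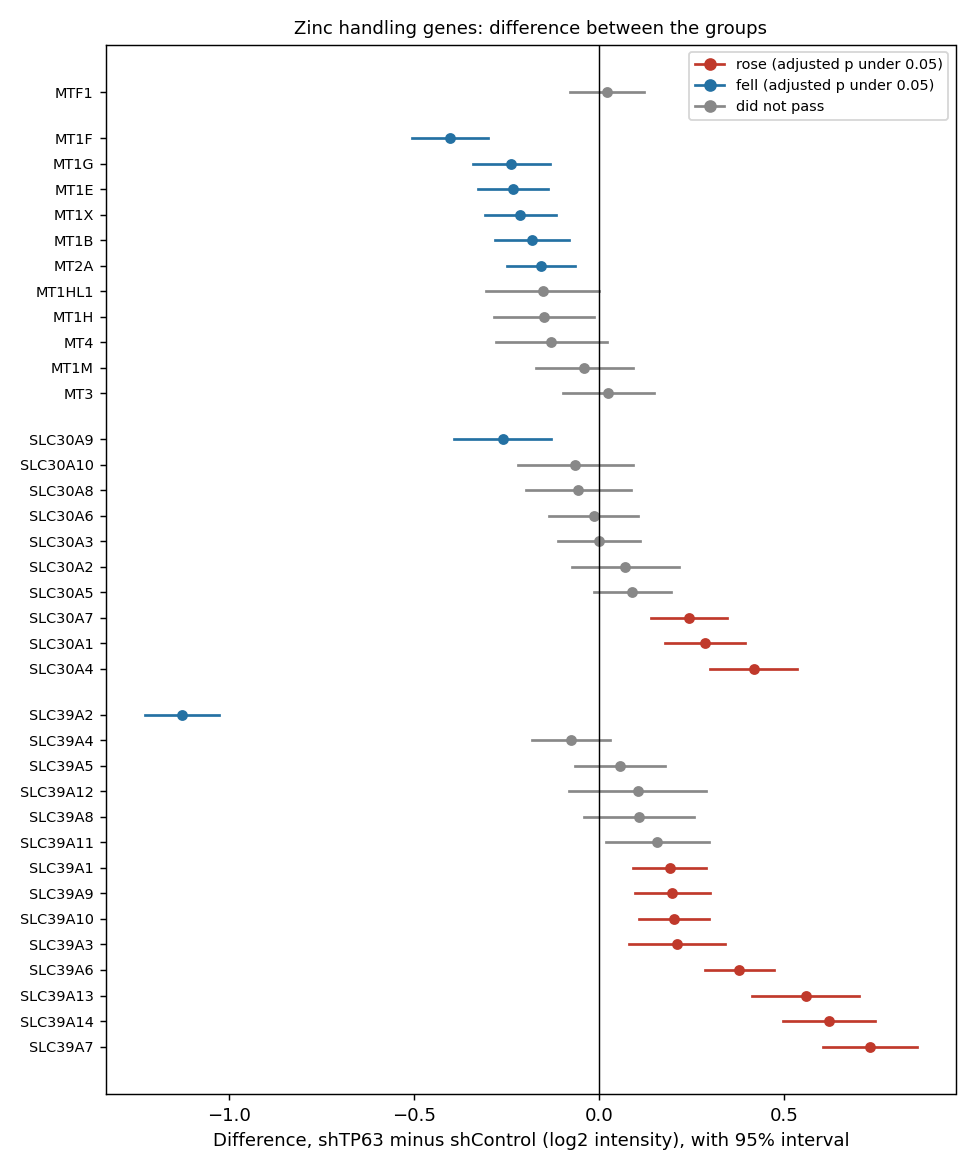
Difference in log2 intensity, shTP63 minus shControl, for the 36 zinc handling genes, grouped from top to bottom as MTF1, metallothioneins, SLC30A and SLC39A, with 95% intervals from limma as lines. Metallothioneins lie at or left of 0 apart from MT3 at 0.03, and SLC39A2 stands alone at -1.13 in a family whose other passing members lie between 0.19 and 0.73.

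A level served as a guide to background: the 95th percentile of the mean levels of 340 olfactory receptor genes, which keratinocytes are not known for expressing, was 6.76. SLC30A2, SLC30A8, SLC30A10 and SLC39A12 lay under it in both groups, and a true change in such dim probe sets would be compressed. The other 32 members had mean levels above it. Scaling also mattered. In the brightest of 5 level bins of equal size the median difference of all genes was -0.10, and there 25.3% rose and 44.0% fell. MT1E, MT1F, MT1G, MT1X and MT2A belong to that bin, and all of them fell. MT1B, which fell, and MT3, which did not pass, belong to the next bin down. In that next bin 43.0% of all genes fell, with a median difference of -0.10. The metallothionein falls therefore stand against these shares rather than the 25.1% of all genes. The array medians themselves were apart, at 7.54, 7.57 and 7.56 in shTP63, against 7.47, 7.44 and 7.44 in shControl. Centring each array on its median removed that offset and moved the median difference of all genes to -0.12. Levels of different probe sets are not comparable as amounts of RNA, and served only to choose probe sets and to place them against the background level, the top of the scale or the level bins.

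MTF1, the sensor, did not pass. It read 9.84, 9.90 and 9.90 in shTP63, against 9.86, 9.89 and 9.82 in shControl. The groups overlapped, and the difference of 0.02 had a 95% interval of -0.08 to 0.12 (limma adjusted p = 0.731). The scaling set its sign and call, with -0.08 (adjusted p = 0.146) after centring on the array median and 0.13 (adjusted p = 0.0482) after cyclic loess.

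MT1F had the largest fall of the metallothioneins. This member of the MT1 group of inducible zinc-binding proteins read 11.996, 11.979 and 11.897 in shTP63, against 12.374, 12.376 and 12.332 in shControl. All 3 shTP63 arrays lay under all 3 shControl arrays. The log2 value fell by 0.40 (SE 0.045), a 1.32-fold lower intensity (limma adjusted p = 0.000132). Over 14 alternatives to the fit its difference ranged from -0.51 to -0.34.

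MT2A encodes the widely expressed human metallothionein. Its intensities were 13.81, 13.77 and 13.78 in shTP63, against 13.96, 13.94 and 13.94 in shControl. The groups did not overlap, yet the step was small: it fell by 0.16 (SE 0.040, limma adjusted p = 0.0121), or 1.11-fold. These values sit close to the highest of any probe set on the arrays, 14.36 to 14.53, where intensity differences may be compressed. The other MT2A probe set averaged 13.35 in shTP63 and 13.48 in shControl, and its difference of -0.13 (SE 0.048) did not pass when all probe sets were fitted (limma adjusted p = 0.0891).

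The other falls were those of further MT1 genes, all zinc-binding proteins of the same cluster. MT1G averaged 12.48 ± 0.049 in shTP63 and 12.72 ± 0.032 in shControl (SD, n = 3 each) and fell by 0.24 (SE 0.045, limma adjusted p = 0.00258). MT1E averaged 12.34 ± 0.017 in shTP63 and 12.58 ± 0.031 in shControl, and fell by 0.23 (SE 0.042, limma adjusted p = 0.00178). MT1X averaged 12.56 ± 0.034 in shTP63 and 12.78 ± 0.014 in shControl, and fell by 0.21 (SE 0.042, limma adjusted p = 0.00300). In none of these 3 genes did an shTP63 array reach the level of an shControl array. MT1B averaged 8.76 ± 0.034 in shTP63 and 8.94 ± 0.036 in shControl, and fell by 0.18 (SE 0.044, limma adjusted p = 0.00888). The MT1B call was lost when arrays were quantile normalized on single-gene probe sets alone (difference -0.11, adjusted p = 0.0928) and after cyclic loess (-0.11, adjusted p = 0.0799). The other 5 metallothionein falls kept their calls in all 14 alternatives to the fit, though MT2A did not pass a stricter threshold of 0.01.

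The metallothioneins that did not pass included the tissue-restricted ones. MT3, best known from the brain, read 8.83, 8.86 and 8.74 in shTP63, against 8.86, 8.77 and 8.72 in shControl, a difference of 0.03 with a 95% interval of -0.10 to 0.15, and it turned to -0.08 after centring on the array median. MT4, described in stratified squamous epithelium, read 7.04, 6.84 and 6.98 in shTP63, against 7.10, 6.99 and 7.17 in shControl. Its groups overlapped, and the difference of -0.13 (95% interval -0.28 to 0.02) did not pass (limma adjusted p = 0.156). The differences of MT1H (-0.15, adjusted p = 0.0756), MT1HL1 (-0.15, adjusted p = 0.106) and MT1M (-0.04, adjusted p = 0.629) did not pass in limma either. In MT1H and MT1HL1 the shTP63 arrays nonetheless all lay under the shControl arrays, with a wider spread in shTP63 (SD 0.110 and 0.132) than in shControl (SD 0.032 and 0.050). MT1H passed as a fall in 4 of 14 alternatives to the fit, MT1HL1 in 2 of 14 and MT4 in 2 of 13. Each passed after centring on the array median, when 9 of the 11 genes fell. MT1H and MT4 also passed after quantile normalization over all probe sets. Without the dimmest 40% of genes MT1H and MT1HL1 passed, and MT1H passed without shTP63 replicate 1.

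**Figure D2:**
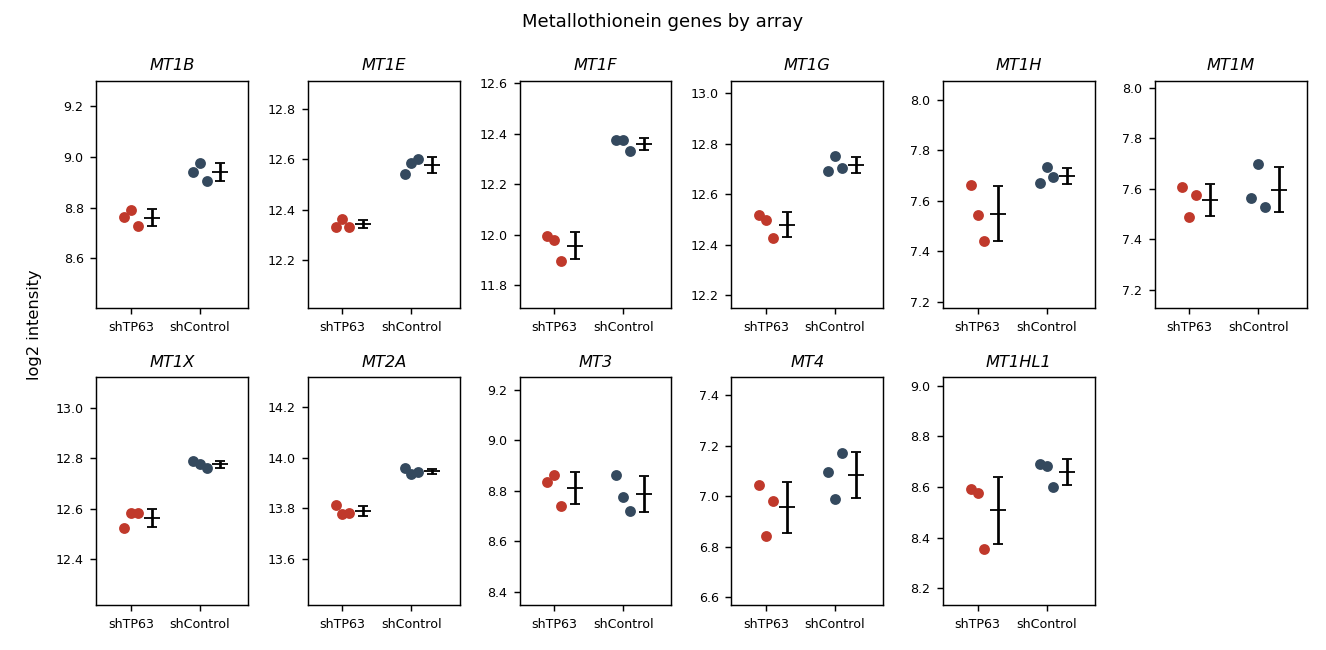
Log2 intensity of the 11 metallothionein genes on each of the 3 shTP63 and 3 shControl arrays (points), with the group mean and SD as a bar beside them; each panel has its own range on the vertical axis. In MT1B, MT1E, MT1F, MT1G, MT1X and MT2A the groups are apart, with means differing by 0.16 to 0.40, and in MT1M, MT3 and MT4 they overlap. The groups are also apart in MT1H and MT1HL1, with means differing by 0.15 in each, though neither gene passed.

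Metallothionein genes are close copies of each other, so probe sets may read more than 1 of them and their separate values are uncertain. Of 4 pseudogenes of the family, which are not members, 2 passed as falls when all probe sets were fitted. MT1P3 averaged 11.21 in shTP63 and 11.53 in shControl (difference -0.32, limma adjusted p = 0.0203). MT1JP averaged 7.58 in shTP63 and 7.79 in shControl (difference -0.21, limma adjusted p = 0.0361). MT1DP (-0.16, adjusted p = 0.0734) and MT1IP (-0.12, adjusted p = 0.266) did not pass. Apart from MT1HL1 on chromosome 1, the 11 genes lie side by side on chromosome 16, between BBS2 and NUP93, in a row that also holds MT1A, which was not analysed here. The flanking genes differed in direction: BBS2, a gene of ciliary transport, fell by 0.29 (SE 0.044, limma adjusted p = 0.000754), whereas NUP93, a nuclear pore subunit, rose by 0.14 (SE 0.040, limma adjusted p = 0.0198).

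Among the exporters SLC30A4, which loads zinc into vesicles and, in mice, into milk, rose the most. It read 8.97, 9.07 and 9.06 in shTP63, against 8.54, 8.65 and 8.67 in shControl. No arrays overlapped, and SLC30A4 rose by 0.42 (SE 0.052), which is 1.34-fold (limma adjusted p = 0.000229).

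SLC30A1, the plasma membrane exporter and itself a target of MTF1, read 9.67, 9.69 and 9.76 in shTP63, against 9.36, 9.45 and 9.44 in shControl. It rose by 0.29 (SE 0.048, limma adjusted p = 0.00117), in the direction opposite to the 6 metallothioneins that fell. MTF1 activity was not measured, and its part in either direction was not tested. SLC30A7, which carries zinc into the early secretory pathway, read 11.57, 11.62 and 11.56 in shTP63, against 11.35, 11.38 and 11.29 in shControl. It rose by 0.24 (SE 0.045, limma adjusted p = 0.00220). SLC30A5 and SLC30A6, which form a complex supplying zinc to secreted enzymes, did not pass, with differences of 0.09 (95% interval -0.01 to 0.19) and -0.01 (-0.14 to 0.11). Both signs changed with the scaling, and that of SLC30A6 also changed without shTP63 replicate 3 (0.0217) and without shControl replicate 2 (0.0041). SLC30A5 passed as a rise after quantile normalization over all probe sets (0.14, adjusted p = 0.0394) or over those with 1 gene (0.17, adjusted p = 0.0134) and after cyclic loess (0.19, adjusted p = 0.00780), and turned to -0.02 after centring. SLC30A6 turned to between 0.01 and 0.07 in the same 3 scalings in which SLC30A5 passed.

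SLC30A9, a mitochondrial zinc transporter, was the single exporter gene that fell. Its values were 9.30, 9.25 and 9.20 in shTP63, against 9.40, 9.58 and 9.55 in shControl, where replicate 1 was the lowest. It fell by 0.26 (SE 0.058, limma adjusted p = 0.00588). The 4 calls of SLC30A1, SLC30A4, SLC30A7 and SLC30A9 held in all 14 alternatives. The remaining genes of the family did not pass. SLC30A3, the transporter of synaptic vesicles, had a difference of 0.00 and a 95% interval of -0.11 to 0.11, and turned to -0.11 after centring. SLC30A2, SLC30A8 of insulin granules and the manganese exporter SLC30A10, all under the background level, differed by 0.07, -0.06 and -0.06. After centring SLC30A2 turned to -0.04, while SLC30A8 (-0.16, adjusted p = 0.0483) and SLC30A10 (-0.17, adjusted p = 0.0445) passed as falls.

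SLC39A2, a plasma membrane importer described in keratinocytes, changed more than any other member. It read 9.82, 9.83 and 9.81 in shTP63, against 11.00, 10.90 and 10.94 in shControl. The shTP63 arrays agreed within 0.010 (SD), and the distance between the groups was many times the spread within either. Its log2 value fell by 1.13 (SE 0.044, 95% interval -1.23 to -1.03, limma adjusted p = 6.24e-07), a 2.18-fold lower intensity. It ranked 22nd among the falls of all 18404 genes. Over the 14 alternatives its difference stayed between -1.23 and -1.03.

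SLC39A7, the importer that releases zinc from the endoplasmic reticulum into the cytosol, had the largest rise of the family. It read 10.77, 10.88 and 10.84 in shTP63, against 10.00, 10.13 and 10.17 in shControl. It rose by 0.73 (SE 0.056, limma adjusted p = 1.79e-05), which is 1.66-fold and placed it 210th among the rises of all genes. SLC39A14, an importer of zinc, manganese and non-transferrin-bound iron that is induced in inflammation, read 10.94, 11.09 and 11.11 in shTP63, against 10.39, 10.46 and 10.43 in shControl. Again no arrays overlapped, and SLC39A14 rose by 0.62 (SE 0.054, limma adjusted p = 3.43e-05), or 1.54-fold.

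SLC39A13, a vesicular and Golgi zinc transporter whose loss causes a connective tissue disorder of the Ehlers-Danlos group, read 9.59, 9.65 and 9.82 in shTP63, against 9.10, 9.11 and 9.17 in shControl. Replicate 3 was the highest array of each group. The gene rose by 0.56 (SE 0.064, limma adjusted p = 0.000142). SLC39A6, also known as LIV-1, a plasma membrane importer, read 11.21, 11.25 and 11.26 in shTP63, against 10.85, 10.87 and 10.86 in shControl. It rose by 0.38 (SE 0.041, limma adjusted p = 0.000108). The calls of SLC39A2, SLC39A6, SLC39A7, SLC39A13 and SLC39A14 held in all 14 alternatives.

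Smaller rises were seen in a further 4 importer genes. SLC39A1, a ubiquitous importer of the plasma membrane, read 11.74, 11.78 and 11.80 in shTP63, against 11.57, 11.56 and 11.63 in shControl, and rose by 0.19 (SE 0.044, limma adjusted p = 0.00676). SLC39A10, the closest relative of SLC39A6, averaged 9.41 ± 0.027 in shTP63 and 9.21 ± 0.026 in shControl (SD, n = 3 each) and rose by 0.20 (SE 0.042, limma adjusted p = 0.00387). SLC39A9, a transporter of the Golgi and plasma membrane, averaged 11.34 ± 0.041 in shTP63 and 11.14 ± 0.034 in shControl, and rose by 0.20 (SE 0.044, limma adjusted p = 0.00604). SLC39A3 averaged 8.78 ± 0.037 in shTP63 and 8.57 ± 0.099 in shControl, and its rise of 0.21 (SE 0.057, limma adjusted p = 0.0150) was lost without shControl replicate 2 (0.16, adjusted p = 0.0556). In all 4 genes the groups were apart on the deposited scale, but each call was lost after centring on the array median, with differences of 0.08 to 0.10 and adjusted p of 0.104 to 0.159.

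**Figure D3:**
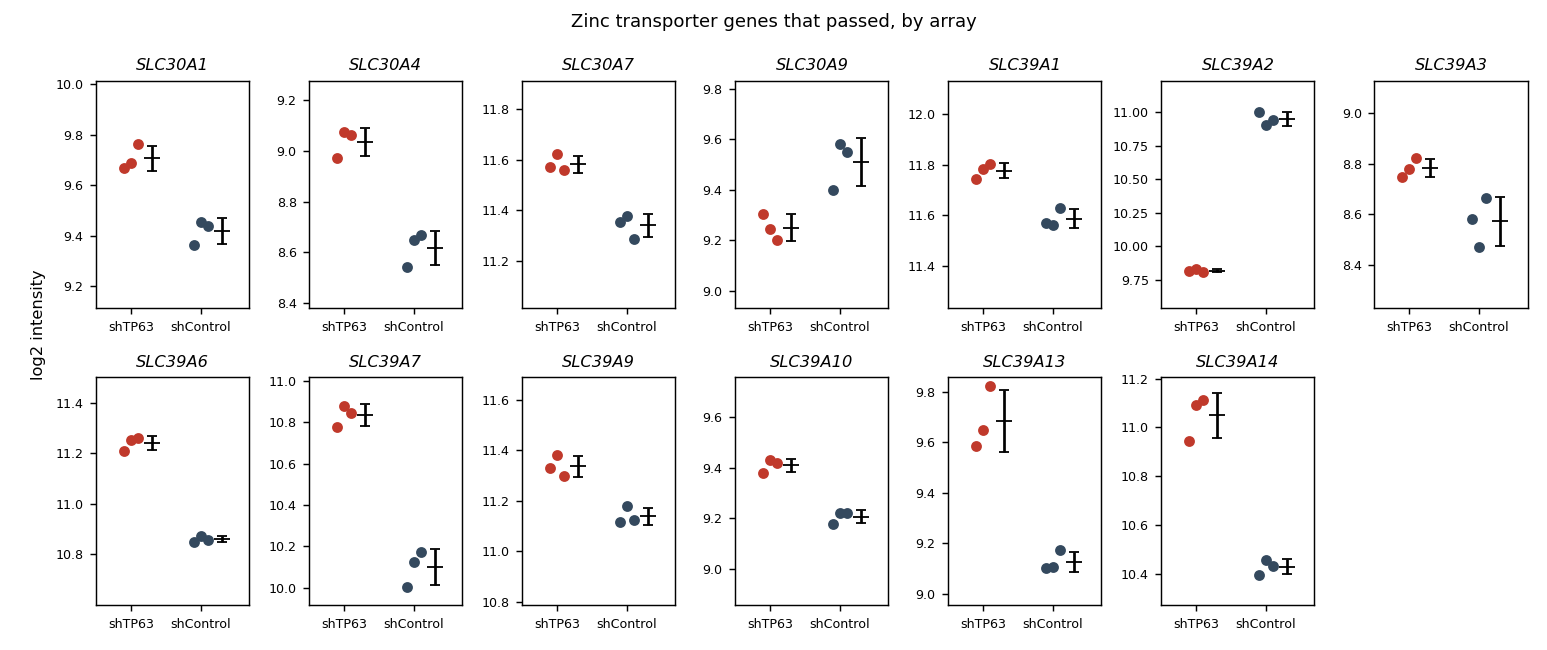
Log2 intensity of the 13 zinc transporter genes that passed, on each of the 3 shTP63 and 3 shControl arrays (points), with the group mean and SD beside them; each panel has its own range on the vertical axis. SLC30A9 and SLC39A2 are lower in shTP63, SLC39A2 by 1.13, and the other 11 are higher by 0.19 to 0.73.

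The last 5 importer genes did not pass. SLC39A4, the gene of acrodermatitis enteropathica, read 8.59, 8.64 and 8.59 in shTP63, against 8.75, 8.63 and 8.68 in shControl, a difference of -0.08 (95% interval -0.18 to 0.03). It passed as a fall after centring on the array median (-0.18, adjusted p = 0.00714). SLC39A11 differed by 0.16 (limma adjusted p = 0.0685) with groups that did not overlap, and passed in 6 of 14 alternatives. SLC39A8, a zinc and manganese importer, differed by 0.11 (95% interval -0.04 to 0.26), SLC39A12 by 0.10 (-0.08 to 0.29) and SLC39A5 by 0.06 (-0.07 to 0.18). Their signs were not stable: SLC39A12 turned to -0.0028 and SLC39A5 to -0.05 after centring, and SLC39A8 to -0.01 after quantile normalization over all probe sets.

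**Figure D4:**
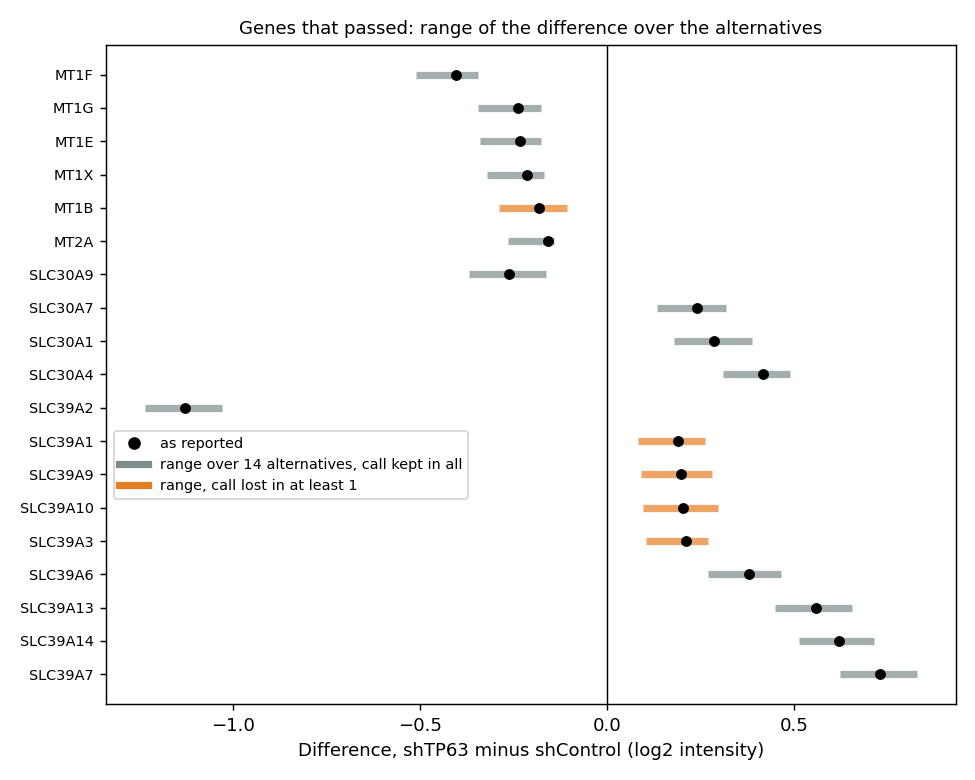
Log2 difference, shTP63 minus shControl, of the 19 genes that passed (black points), with the range over 14 alternative fits and scalings at the same threshold as bars, grey where the call was kept in all and orange where it was lost in at least 1. The orange bars are MT1B, SLC39A1, SLC39A3, SLC39A9 and SLC39A10, and no bar crosses 0.

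Genes around zinc handling were described from lists drawn up for this comparison, with no test of a list, and their counts stand against 16.4% of all genes rising and 25.1% falling. Several lists were bright. Median levels were 9.22 for other zinc genes, 9.02 for copper, 9.58 for iron and 10.34 for genes near the metallothionein row, against 8.17 for all genes. These levels lie in the 2 brightest level bins, where 43.0% and 44.0% of all genes fell. Rises made up 682 of 3681 genes in the second brightest bin and 25.3% in the brightest. Of 16 genes of zinc binding, sensing and permeation outside the transporter families, 9 rose and 4 fell (median difference 0.22). The 3 with the smallest adjusted p were S100A9, which rose by 1.16 (SE 0.049), S100A8, which rose by 1.94 (SE 0.081), and ZC3H12A, which rose by 0.90 (SE 0.040), with limma adjusted p of 8.39e-07 to 1.14e-06. S100A8 and S100A9 form calprotectin, which sequesters zinc and manganese outside cells. ZC3H12A is a zinc-finger ribonuclease that limits inflammatory transcripts and is no zinc transporter. S100A8 lay under the background level in shControl, which leaves the size of that rise uncertain.

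Of 14 measured copper handling genes, 4 rose and 5 fell (median difference -0.03). The 3 leading genes fell: MEMO1, a copper-binding protein, fell by 0.50 (SE 0.043), the copper regulator COMMD1 fell by 0.46 (SE 0.054) and the transcription factor SP1 fell by 0.37 (SE 0.041), with limma adjusted p of 3.30e-05 to 0.000158. MEMO1 has more than 1 probe set, and with the mean of all its probe sets the difference was -0.38. Of 19 measured iron handling genes, 6 rose and 6 fell (median difference 0.05). LCN2, a siderophore-binding lipocalin, rose by 1.76 (SE 0.050), the hepcidin regulator HFE by 0.66 (SE 0.053) and the divalent metal importer SLC11A2 by 0.62 (SE 0.051), with limma adjusted p of 1.23e-07 to 2.55e-05.

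Genes commonly raised by cadmium, zinc or other electrophilic metals were counted too, and of 14 measured 2 rose and 8 fell (median difference -0.21). The median level of these 14 genes was 9.71, and in the 2 brightest of the 5 level bins 43.0% and 44.0% of all genes fell, with a median difference of -0.10 in each. GCLC, which catalyses glutathione synthesis, fell by 0.77 (SE 0.057), the quinone reductase NQO1 fell by 0.47 (SE 0.043) and the co-chaperone DNAJB1 fell by 0.36 (SE 0.041), with limma adjusted p of 1.45e-05 to 0.000145. HMOX1, heme oxygenase, read 7.63, 7.67 and 7.61 in shTP63, against 7.70, 7.61 and 7.71 in shControl, and did not pass (difference -0.04, limma adjusted p = 0.569). It was named after its value was seen. Glucocorticoids also induce metallothioneins, and of 12 measured genes of the response to them, the receptor gene NR3C1 included, 4 rose and 3 fell (median 0.04). TSC22D3, known as GILZ, fell by 0.88 (SE 0.041) and NR3C1 fell by 0.52 (SE 0.042), while the kinase SGK1 rose by 1.22 (SE 0.062), with limma adjusted p of 1.55e-06 to 2.33e-05. Of 10 measured genes near the metallothionein row, not all of them directly beside it, 2 rose and 4 fell (median -0.02). GNAO1, a G protein subunit gene, rose by 0.42 (SE 0.049), while CPNE2, a copine, and HERPUD1, an endoplasmic reticulum stress gene, each fell by 0.28 (SE 0.042), with limma adjusted p of 0.000149 to 0.000580.

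The arrays were checked for the labelled cell type and for other cells. All 7 measured keratinocyte markers were above background, with a summed linear intensity of 43923 to 44929 in shTP63, against 52407 to 54422 in shControl, and 1 rose and 4 fell. Of 24 measured markers of fibroblasts, melanocytes, leukocytes and endothelium, 11 were above background. The leukocyte sum was 1216 to 1315 in shTP63, against 780 to 859 in shControl, through CD68 and CD14, while PTPRC, CD3E, LYZ and FCGR3A were below background in both groups. The fibroblast sum was 1252 to 1335 in shTP63 and 1192 to 1232 in shControl, the melanocyte sum 794 to 824 in shTP63 and 774 to 783 in shControl, and the endothelial sum 965 to 1001 in shTP63 and 931 to 979 in shControl. The part of these shifts in the results above was not tested. Across probe sets, r was 0.996 to 0.998 between replicates of a group and 0.988 to 0.991 between groups, and probe sets are not independent replicates.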

How the data were processed

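Per the submitters' processing notes, the authors' deposited intensities came from RMA in R 2.15.1, which as a method corrects background, normalizes arrays to a common distribution and summarises probe sets. Per the labels' protocols, biotinylated cRNA was made with an oligo-dT primer, and each array has 1 colour. The deposited values were linear, with array medians of 187 to 190 in shTP63 and 173 to 177 in shControl, and log2 was taken here. Of 32321 probe sets, the platform annotation tied 19158 to 1 gene and 1388 to several, and 11775 are not in it. Entrez identifiers matched 19128 of the first kind to RefSeq. Members were protein-coding by RefSeq biotype.

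The 18404 genes were fitted in R 4.3.3 by lmFit and eBayes of limma 3.58.1 without covariates, with two-sided tests and Benjamini-Hochberg adjustment over all genes. Precision is limited by the 3 arrays per group (median standard error 0.053). The fit was also run on simulated data with independent values and differences planted in 200 genes. Those data held no offset between arrays, so that run cannot address the choice of scaling. Alternatives were a replicate block, 4 scalings, a filter on the dimmest 40%, the mean of all probe sets, a trended robust prior, a threshold of 0.01, and each array left out. All array values were given for members that passed with a difference of at least 0.25, for the brightest of each family and for MTF1. MT3, MT4 and SLC39A4 received them after their values were seen. Named list genes were the 3 with the smallest adjusted p. Members and lists were chosen with earlier results of these data known. Same-numbered arrays did not deviate together (correlations of -0.15 to 0.13), so the numbers were not taken as pairs. BBS2 and NUP93 were named for their position, and HMOX1 after its value was seen.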

Additional observations from a re-analysis of the deposited data

How the results depend on the processing

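Of the 19 members that passed, 14 kept their call in all 14 alternatives to the fit. At a threshold of 0.01, 10 members rose and 7 fell, MT2A and SLC39A3 being lost, and 13 of the 19 kept their call there and in the 14 as well. With the replicate block 12 members rose and 8 fell, SLC39A11 being the addition, and over all genes 2832 rose and 4333 fell. The samples share only a number. Centring on the array median changed the most: 7 members rose and 14 fell, in SLC30A 3 fell, in SLC39A 4 rose and 2 fell, and over all genes 1782 rose and 7932 fell, their median being -0.12. Metallothionein falls numbered 5 to 9 over the alternatives and rises 0. With each array left out in turn, 10 to 12 members rose and 8 or 9 fell.

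Some members changed sign, and none of these values passed. Centring gave -0.0849 for MTF1, -0.0819 for MT3, -0.0359 for SLC30A2, -0.107 for SLC30A3, -0.0170 for SLC30A5, -0.0504 for SLC39A5 and -0.0028 for SLC39A12. Quantile normalization over all probe sets gave -0.0393 for SLC30A2, -0.105 for SLC30A3, 0.0080 for SLC30A6, -0.0559 for SLC39A5 and -0.0077 for SLC39A8. Over probe sets with 1 gene it gave -0.0085 for SLC30A3 and 0.0205 for SLC30A6, and cyclic loess gave -0.0102 and 0.0681. Without 1 array, MT1M ranged from -0.0744 to 0.0105, MT3 from -0.0075 to 0.0637, SLC30A3 from -0.0291 to 0.0401, SLC30A6 from -0.0498 to 0.0217 and SLC30A10 from -0.107 to 0.0035. The causes were not tested. Leaving out the dimmest 40% gave no value for 7 members. Dim probe sets limit what a fold change can show.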
